A study of Mus musculus with 12 samples.

Results

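The fatty acyl desaturases and elongases were followed in livers of mice fed a choline-deficient diet. The 10 genes were *Scd1*, *Scd2*, *Fads1*, *Fads2*, *Elovl1*, *Elovl2*, *Elovl3*, *Elovl5*, *Elovl6* and *Elovl7*. They were chosen by name as enzymes that desaturate or lengthen fatty acids, with earlier results of these data known. They were found through the RefSeq accession of their array probes. All 10 of the 10 were among the 21613 gene symbols on the array, and all 10 were among the 13901 genes that passed a filter on dim probes, which kept genes whose probe exceeded background clearly in each array of 1 or more groups. *Elovl7* passed through the CDAHFD groups, where it was high, and the other 9 were well above background on all 12 arrays.

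The livers came from male C57BL/6NJcl mice aged 7, 8 and 12 weeks at sampling, after 1, 2 and 6 weeks on a diet. The CDAHFD groups, titled NASH in the labels, received CDAHFD, a choline-deficient, L-amino acid-defined feed rich in fat (60 kcal%) and with methionine at 0.1% by weight, which was used to bring on nonalcoholic steatohepatitis (fat, inflammation and injury in the liver). The control groups received the breeding chow CE-2, a natural-ingredient feed, so that the diets differ in more than choline. Each of the 6 groups held 2 one-colour Agilent arrays, so every difference below rests on 2 CDAHFD arrays and 2 control arrays a week. No label says whether replicates were separate animals, and the p-values measure only the spread between these samples.

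Fatty acid synthase releases palmitate, a saturated chain, and the liver then modifies it in the membrane of the endoplasmic reticulum. Stearoyl-CoA desaturases (the *Scd* genes) put the first double bond into saturated chains and make oleate and palmitoleate, the main monounsaturated fatty acids of triglyceride and phospholipid. Elongases (the *Elovl* genes) carry out the first, rate-limiting condensation of each elongation round. Front-end desaturases (the *Fads* genes) and the elongases of polyunsaturated chains (*Elovl2* and *Elovl5*) turn dietary essential fatty acids into arachidonate and docosahexaenoate. The other elongases followed here act on saturated and monounsaturated chains. In liver many of these genes are known targets of SREBP-1c, LXR and PPAR alpha, and *Scd1* is known to fall when the diet is rich in polyunsaturated fat.

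Signals were put on the log2 scale relative to each array's 75th percentile, so a value of 0 is a probe at that percentile and a step of 1 is a doubling. A level of 1 probe cannot be set against that of another probe. Differences are CDAHFD minus control and were set against the median difference over all genes (0.13, 0.06 and 0.04 at 1, 2 and 6 weeks, and 0.08 averaged over the weeks), with the standard error (SE) of the limma fit. A gene was called where the Benjamini-Hochberg adjusted p of its difference, before that median was subtracted, was under 0.05.

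Between 45.4% and 49.7% of probes were well above background on CDAHFD arrays and between 40.4% and 44.4% on control arrays, and no spot (0) was saturated. Both diets of a week shared a slide, with weeks 1 and 2 on slide 1 and week 6 on slide 2, so each diet difference was measured within a slide. Control arrays lay in slide columns 1, 3 and 3 and CDAHFD arrays in columns 2, 4 and 4 at 1, 2 and 6 weeks. Within a week, diet and slide column therefore cannot be told apart. Control replicate 1 at 1 week had a dim corner with 1887 gene spots, which held the spot of *Elovl3* and of no other of the 10 genes. Hepatocyte markers were bright in all groups, with a mean log2 signal of 3.58 to 3.88 on CDAHFD arrays and 4.11 to 4.51 on control arrays. At 1, 2 and 6 weeks 6, 4 and 2 of 7 were lower in CDAHFD livers, against 15.1%, 14.7% and 16% of all genes.

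The genes divided by direction rather than by enzyme family. *Scd1*, the main hepatic stearoyl-CoA desaturase, and *Elovl3*, an elongase of saturated and monounsaturated very long chains, fell to a small fraction of their control signal at each week. *Elovl7*, another elongase of saturated chains, and *Scd2*, the paralog of *Scd1* known for its expression in brain, rose at each week. *Fads2* (delta-6 desaturase) rose and *Elovl2* (an elongase of polyunsaturated chains) fell at 2 weeks, *Elovl6* (which elongates palmitate to stearate) fell at 6 weeks, and *Fads1*, *Elovl1* and *Elovl5* passed the test at no single week.

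By count, 2 of the 10 genes were called higher and 2 lower at 1 week, against 25.8% and 15.1% of all 13901 genes. At 2 weeks 3 were higher and 3 lower, against 23% and 14.7% of all genes. At 6 weeks 2 were higher and 3 lower, against 24.5% and 16%. Averaged over the weeks, 3 were higher and 4 lower, against 35.6% and 25.6%. These shares lie near the background, while *Scd1* and *Elovl3* had differences of extreme size. The 10 genes were chosen with earlier results of these data known, so the ranks below describe these genes and test nothing. *Scd1* ranked 1, 1 and 4 from the lowest of 13901 differences at 1, 2 and 6 weeks and *Elovl3* ranked 4, 2 and 9 from the lowest. The median difference of the 10 genes was -0.11, -0.12 and -0.38 at the 3 weeks, where that of all genes is 0 by construction.

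**Figure D1:**
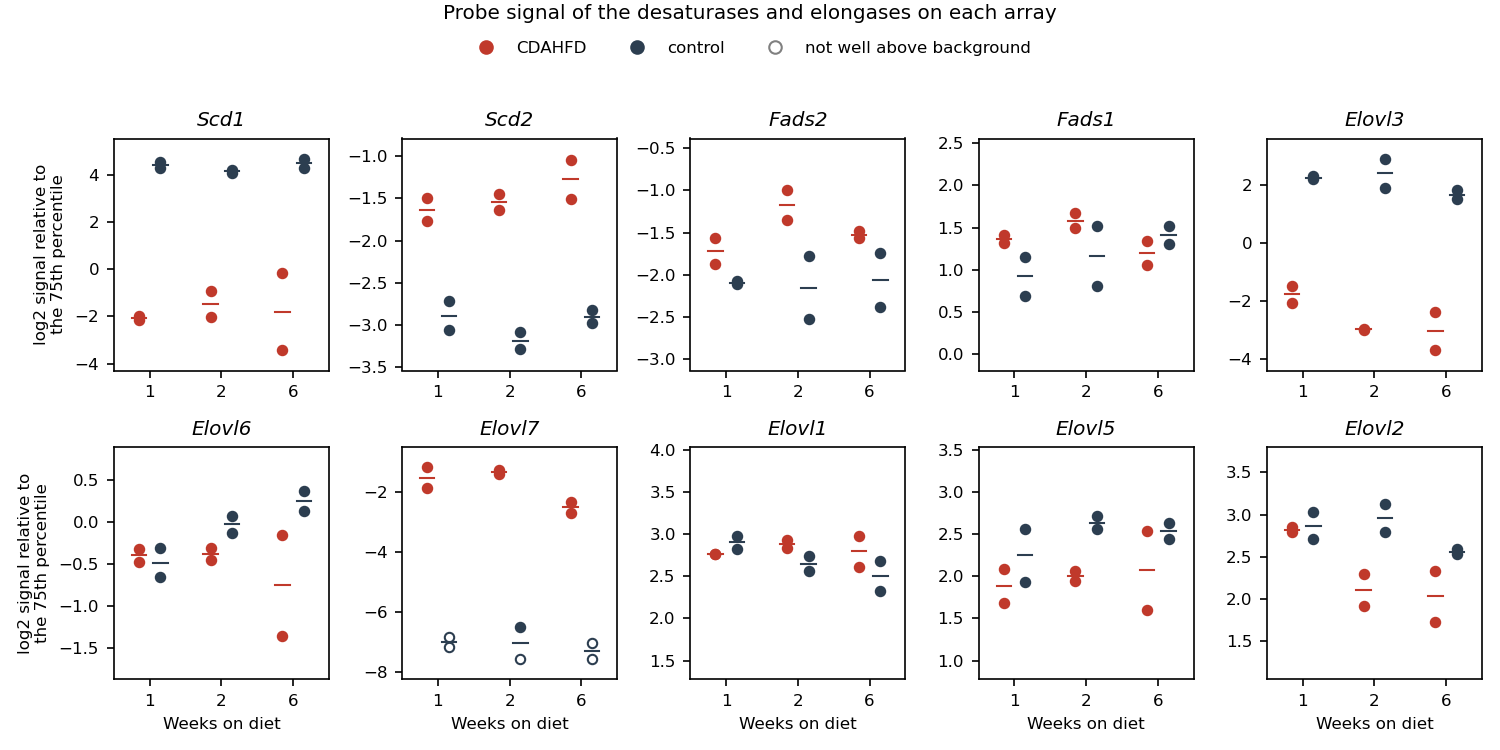
Log2 signal of each gene's probe relative to the array's 75th percentile (vertical axes, own range in each panel) against weeks on diet, with CDAHFD left and control right. Points are arrays, horizontal bars are means of 2 arrays and open points were not well above background. *Scd1* and *Elovl3* lie lower and *Scd2* and *Elovl7* higher on all 6 CDAHFD arrays than on all 6 control arrays, and the *Scd1* points of CDAHFD at 6 weeks (-3.44 and -0.17) lie far apart.

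Promoters of 6 of the 10 genes, 8 windows in all, were in the RefSeq promoter table used here (GRCm38.p6), and *Scd1*, *Scd2*, *Elovl3* and *Fads1* had no entry in it. The windows of 4 genes with contrasting values, 1 that rose at each week, 1 that fell at 6 weeks, 1 that rose at 2 weeks and 1 not called at any single week, are printed 5′ to 3′ in the direction of the gene as the 250 bases before the annotated start. Capitals mark GGGCGG (the GC box of SP1-type factors), CCAAT and CACGTG (an E-box form bound by helix-loop-helix factors) on either strand.
Elovl7, chr13:108214154-108214403, plus strand: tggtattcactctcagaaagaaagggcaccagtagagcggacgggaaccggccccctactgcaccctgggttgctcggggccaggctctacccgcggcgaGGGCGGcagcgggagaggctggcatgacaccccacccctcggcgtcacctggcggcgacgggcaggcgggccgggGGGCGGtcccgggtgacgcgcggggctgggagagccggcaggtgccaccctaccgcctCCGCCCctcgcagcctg
Elovl6, chr3:129532136-129532385, plus strand: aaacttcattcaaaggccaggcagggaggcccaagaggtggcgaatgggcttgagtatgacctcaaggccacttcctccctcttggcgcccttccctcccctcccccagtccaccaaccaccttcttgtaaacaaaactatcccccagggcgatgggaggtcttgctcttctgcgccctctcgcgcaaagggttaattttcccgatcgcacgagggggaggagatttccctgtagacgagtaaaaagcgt
Fads2, chr19:10101504-10101753, minus strand: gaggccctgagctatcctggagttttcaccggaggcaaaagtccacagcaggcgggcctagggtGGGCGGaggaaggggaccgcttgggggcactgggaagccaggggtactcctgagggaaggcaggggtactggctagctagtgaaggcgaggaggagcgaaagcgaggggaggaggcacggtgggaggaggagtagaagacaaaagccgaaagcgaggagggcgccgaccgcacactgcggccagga
Elovl5, chr9:77917115-77917364, plus strand: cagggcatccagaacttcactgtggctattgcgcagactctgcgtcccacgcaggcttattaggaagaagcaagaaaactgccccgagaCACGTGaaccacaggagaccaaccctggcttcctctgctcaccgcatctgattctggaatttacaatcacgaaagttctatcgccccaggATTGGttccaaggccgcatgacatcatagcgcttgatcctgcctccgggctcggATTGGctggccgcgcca
The *Elovl7* window held 3 GC boxes, beginning 150, 75 and 17 bases before the start, and its last stretch lies within the gene's full annotated extent. The *Fads2* window held 1 GC box 186 bases before the start. The *Elovl5* window held CCAAT at 71 and 17 bases and CACGTG at 161 bases before the start, and the *Elovl6* window held none of these letters. Of all 32851 windows of this length in the table, 32.7% held GGGCGG, 33.8% held CCAAT and 6.02% held CACGTG. The letters TCACNCCAC, a form of the sterol regulatory element to which SREBP binds, were in 0 of the 8 windows and in 1.05% of all windows.

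*Scd1* had the strongest contrast. Its log2 signal was -2.0 and -2.16 in CDAHFD livers and 4.28 and 4.53 in control livers at 1 week. At 2 weeks it was -2.04 and -0.91 in CDAHFD livers and 4.21 and 4.08 in control livers. At 6 weeks it was -3.44 and -0.17 in CDAHFD livers and 4.69 and 4.31 in control livers. The 6 control arrays lay within 1 log2 unit of each other, the CDAHFD arrays spread much more widely, and the groups overlapped at no week. The relative difference was -6.61 ± 0.98 (SE, n = 2 arrays per diet) at 1 week, -5.68 ± 0.98 at 2 weeks and -6.35 ± 0.98 at 6 weeks, which are 97.9-fold, 51.2-fold and 81.3-fold lower in CDAHFD livers (limma adjusted p 0.0028, 0.00515 and 0.00282). In bulk liver, fewer cells that express a gene and less RNA per cell cannot be told apart.

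At 6 weeks the size of the *Scd1* difference rested on which CDAHFD array was read. Without CDAHFD replicate 1 of 6 weeks it was -4.74 (limma adjusted p 2.1e-04), and without replicate 2 it was -7.97 (limma adjusted p 2.5e-05). Both values remained past the threshold and both were lower in CDAHFD livers.

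*Scd2* encodes a further stearoyl-CoA desaturase, and it changed in the opposite direction. Signals of *Scd2* (log2) were -1.5 and -1.77 in CDAHFD livers and -3.06 and -2.72 in control livers at 1 week. They were -1.64 and -1.45 in CDAHFD livers and -3.29 and -3.08 in control livers at 2 weeks. They were -1.51 and -1.04 in CDAHFD livers and -2.98 and -2.82 in control livers at 6 weeks. All 6 CDAHFD arrays were higher than all 6 control arrays. The relative difference was 1.13, 1.58 and 1.59 (each ± 0.19 SE) at 1, 2 and 6 weeks, or 2.19-fold, 2.99-fold and 3-fold higher in CDAHFD livers (limma adjusted p 5.8e-04, 8.9e-05 and 7.7e-05). 

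On each array, the ratio of the *Scd2* signal to the *Scd1* signal carries no meaning as a level, but its difference between diets shows unequal change. The log2 ratio lay between -0.87 and 1.93 on CDAHFD arrays and between -7.67 and -7.13 on control arrays. It was higher by 7.74, 7.26 and 7.93 in CDAHFD livers at 1, 2 and 6 weeks, and by 7.64 over the 3 weeks. An exact 2-sided permutation test that exchanged diets within weeks gave p = 0.00926, the smallest that its 216 relabelings allow, and 0.0185 after adjustment over the 4 pairs of genes compared in this way. All 6 CDAHFD arrays were lower for *Scd1* and higher for *Scd2*, so this p had to be the smallest possible. It adds nothing to the separate differences of the 2 genes. The probes' sequences were not used here, and cross-hybridisation between these near-identical paralogs was not tested.

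**Figure D2:**
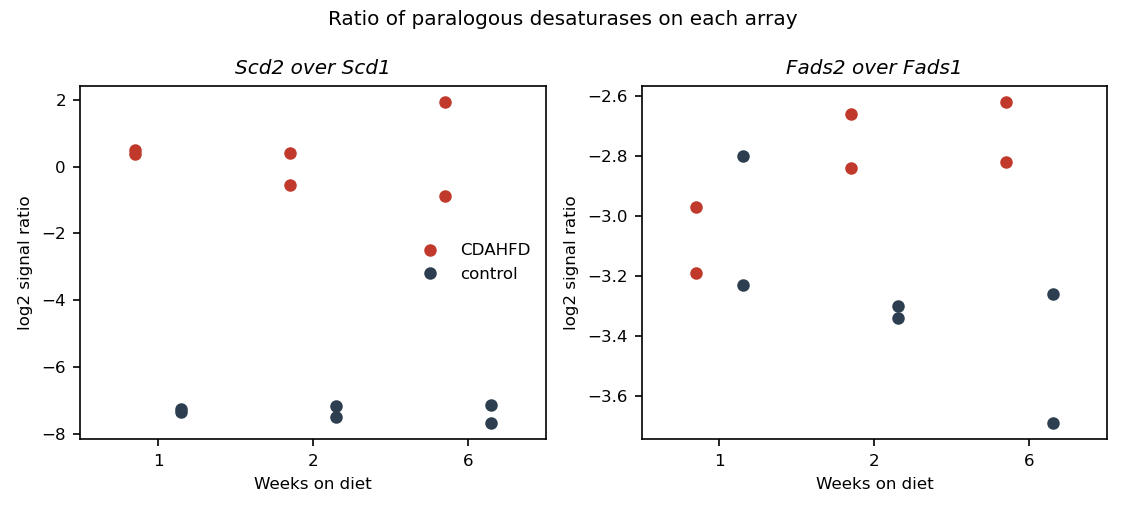
Log2 ratio of the signals of *Scd2* over *Scd1* (left) and of *Fads2* over *Fads1* (right) on each array against weeks on diet, with CDAHFD left and control right in each pair. Points are arrays, and the height of a ratio depends on the probes and has no meaning as a level. The *Scd2* over *Scd1* ratio lies between -0.87 and 1.93 on CDAHFD arrays and between -7.67 and -7.13 on control arrays, while the *Fads2* over *Fads1* ratio overlaps at 1 week.

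Among the front-end desaturases, *Fads2* encodes the delta-6 enzyme that takes the first step from linoleate and alpha-linolenate. Its log2 signal was -1.56 and -1.87 in CDAHFD livers and -2.11 and -2.08 in control livers at 1 week. It was -1.35 and -0.99 in CDAHFD livers and -2.53 and -1.78 in control livers at 2 weeks. It was -1.57 and -1.48 in CDAHFD livers and -2.38 and -1.74 in control livers at 6 weeks. The CDAHFD pair lay above the control pair at each week, by a narrow margin at 1 and 6 weeks.

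The relative difference of *Fads2* was 0.25, 0.93 and 0.5 (each ± 0.26 SE), and it passed the test at 2 weeks alone (limma adjusted p 0.277, 0.0144 and 0.133). The call at 2 weeks was lost without control replicate 1 of that week (0.57, limma adjusted p 0.112) and without CDAHFD replicate 2 (0.75, limma adjusted p 0.106). Averaged over the weeks *Fads2* was higher by 0.55 ± 0.15 (limma adjusted p 0.00462).

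*Fads1*, which lies beside *Fads2* on chromosome 19, encodes the delta-5 desaturase that makes arachidonate. Signals of *Fads1* (log2) were 1.41 and 1.32 in CDAHFD livers and 0.69 and 1.15 in control livers at 1 week, 1.49 and 1.67 against 0.81 and 1.52 at 2 weeks, and 1.05 and 1.34 against 1.31 and 1.52 at 6 weeks. The groups overlapped at 2 and 6 weeks. The relative difference was 0.32, 0.36 and -0.26 (each ± 0.23 SE), with limma adjusted p of 0.144, 0.178 and 0.461. Averaged over the weeks it was 0.13, with a 95% interval of -0.16 to 0.42. *Fads1* passed at 2 weeks only without control replicate 2 of that week (0.7, limma adjusted p 0.0175).

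The *Fads2* over *Fads1* log2 ratio ranged from -3.19 to -2.62 on CDAHFD arrays and from -3.69 to -2.8 on control arrays, and differed by -0.06, 0.57 and 0.76 at 1, 2 and 6 weeks. Over the weeks it was higher by 0.42 in CDAHFD livers (exact permutation p = 0.037, adjusted over the 4 pairs 0.0494).

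Of the elongases that act on saturated and monounsaturated chains, *Elovl3* is known in mouse liver for higher expression in males. Signals of *Elovl3* (log2) were -2.06 and -1.47 in CDAHFD livers and 2.22 and 2.33 in control livers at 1 week. They were -2.99 and -2.96 in CDAHFD livers and 2.93 and 1.91 in control livers at 2 weeks. They were -2.39 and -3.71 in CDAHFD livers and 1.84 and 1.52 in control livers at 6 weeks. Every CDAHFD array was lower than every control array by more than 2 log2 units. The relative difference was -4.16, -5.45 and -4.77 (each ± 0.46 SE), or 17.9-fold, 43.7-fold and 27.3-fold lower in CDAHFD livers (limma adjusted p 4.2e-04, 7.7e-05 and 1.3e-04). With the dim corner of control replicate 1 left out, the difference at 1 week was -4.21 (limma adjusted p 8.5e-04).

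*Elovl6* encodes the enzyme that elongates palmitate to stearate and so feeds the stearoyl-CoA desaturases. Its log2 signal was -0.32 and -0.48 in CDAHFD livers and -0.66 and -0.31 in control livers at 1 week. It was -0.31 and -0.45 in CDAHFD livers and -0.13 and 0.07 in control livers at 2 weeks. It was -1.35 and -0.16 in CDAHFD livers and 0.13 and 0.37 in control livers at 6 weeks. The groups overlapped at 1 week, and at 6 weeks the CDAHFD arrays lay further from each other than the nearer one lay from control.

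The relative difference of *Elovl6* was -0.04, -0.4 and -1.04 (each ± 0.31 SE), and it fell at 6 weeks alone (limma adjusted p 0.839, 0.418 and 0.0296). That call was lost in a fit of the 4 arrays of week 6 alone (limma adjusted p 0.0992) and under normexp background correction (-0.85, limma adjusted p 0.0555). It was lost without CDAHFD replicate 1 of 6 weeks (-0.49, limma adjusted p 0.0926) and without either control replicate (-1.16 and -0.93, limma adjusted p 0.0731 and 0.138).

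The difference in signal between *Elovl6* and *Elovl3* on the same array was higher in CDAHFD livers by 4.13, 5.04 and 3.73 at 1, 2 and 6 weeks (4.3 over the weeks, exact permutation p = 0.00926, adjusted over the 4 pairs 0.0185). *Elovl3* separated the diets by more than the whole range of *Elovl6* signals, so this p too had to be the smallest possible. Both elongases act on saturated chains, and the pair did not change alike.

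*Elovl7*, an elongase of saturated chains, was bright in CDAHFD livers and at or near background in control livers. Its log2 signal was -1.17 and -1.88 in CDAHFD livers and -7.18 and -6.83 in control livers at 1 week. It was -1.4 and -1.26 in CDAHFD livers and -7.57 and -6.51 in control livers at 2 weeks. It was -2.7 and -2.33 in CDAHFD livers and -7.58 and -7.04 in control livers at 6 weeks. The control signal was well above background on 0, 1 and 0 of 2 arrays at 1, 2 and 6 weeks, and on 2 of 2 CDAHFD arrays at each week.

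A control signal below background gives only a bound, set by the dimmest probes well above background on those arrays. *Elovl7* was at least 33.2-fold higher in CDAHFD livers at 1 week, at least 35.1-fold higher at 2 weeks and at least 19.1-fold higher at 6 weeks (limma adjusted p 7.2e-06, 3.0e-06 and 5.2e-06). At 2 weeks 1 of the 2 control arrays measured it, and its own signal entered the bound there. At 1 week the signal of control replicate 2 (-6.83) was not well above background but lay above that array's floor (-6.93), and it entered the bound. Bounds here and below were taken without subtracting the all-gene median, and they hold for this background correction. Under normexp background correction, which raises dim signals, the fitted log2 differences were 2.64, 3.03 and 2.11. These are smaller than the bounds above, and they remained past the threshold.

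**Figure D3:**
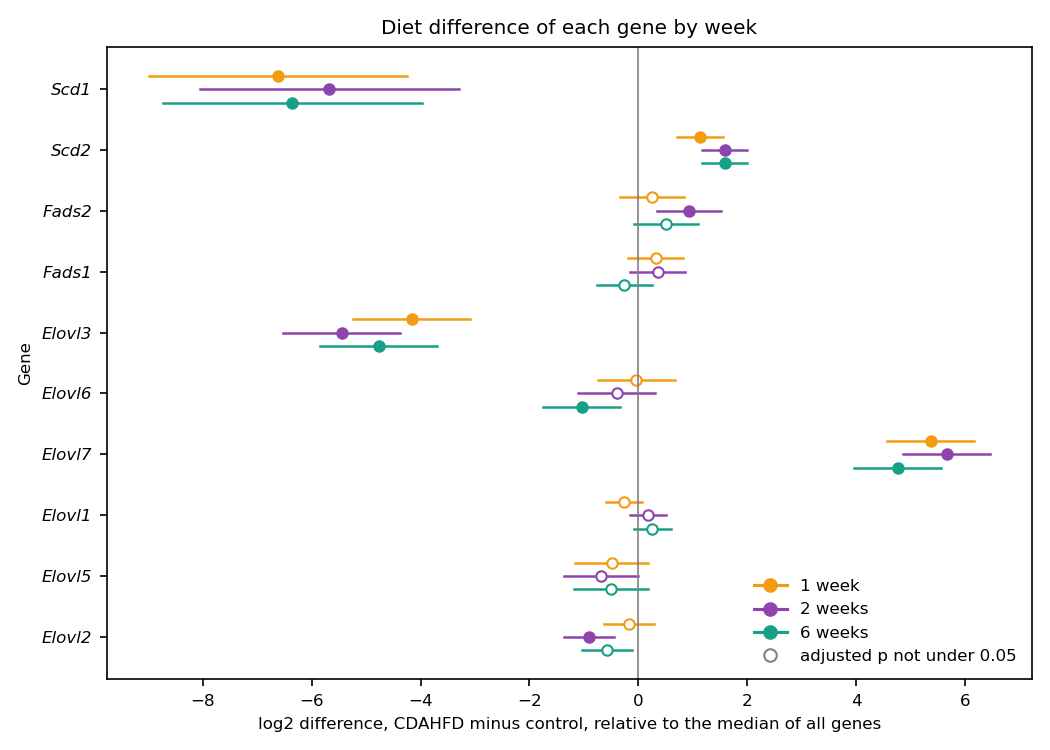
Diet difference of each gene on the log2 scale, CDAHFD minus control less the all-gene median (horizontal axis), by week (colours). Points are estimates of the limma fit with 2 arrays per diet, lines are 95% intervals, and open points had an adjusted p of 0.05 or more. *Scd1* and *Elovl3* lie at -4.16 or lower and *Elovl7* at 4.76 or higher at each week, where the fitted *Elovl7* values rest on controls of which 1 of 6 arrays was well above background, and *Fads1*, *Elovl1* and *Elovl5* have open points throughout.

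*Elovl1*, a widely expressed elongase that supplies chains for sphingolipids, had the narrowest range. Its log2 signal lay between 2.61 and 2.98 on CDAHFD arrays and between 2.33 and 2.98 on control arrays. The relative difference was -0.27, 0.17 and 0.25 (each ± 0.15 SE), with limma adjusted p of 0.483, 0.262 and 0.159. Averaged over the weeks it was 0.05, with a 95% interval of -0.15 to 0.24. A second probe of the gene had differences of -0.17, 0.48 and 0.51 (each ± 0.19 SE), with adjusted p of 0.831, 0.0502 and 0.0428 over all probes, so the probes differ in whether the gene passed at 6 weeks. Quantile normalization gave differences of 0.15, 0.52 and 0.52, past the threshold at 2 and 6 weeks (limma adjusted p 0.0361 and 0.0445).

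The elongases of polyunsaturated chains were *Elovl5*, which acts on the products of the front-end desaturases, and *Elovl2*, which makes the longer precursors of docosahexaenoate. The log2 signal of *Elovl5* was 2.08 and 1.68 in CDAHFD livers and 1.93 and 2.56 in control livers at 1 week. It was 2.06 and 1.94 in CDAHFD livers and 2.71 and 2.56 in control livers at 2 weeks. It was 2.54 and 1.6 in CDAHFD livers and 2.63 and 2.44 in control livers at 6 weeks. The groups overlapped at 1 and 6 weeks.

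The relative difference of *Elovl5* was -0.49, -0.69 and -0.5 (each ± 0.3 SE), and none passed the test (limma adjusted p 0.351, 0.128 and 0.245). Averaged over the weeks it was lower, at -0.57 ± 0.17 (limma adjusted p 0.0335). This call ended under 10 of 23 alternatives, among them quantile normalization (-0.31, limma adjusted p 0.169) and 8 of the 12 omissions of an array (adjusted p up to 0.0861). At 2 weeks *Elovl5* passed in a fit of that week's 4 arrays alone (-0.69, limma adjusted p 0.00469). At 6 weeks the value was -1.01 (limma adjusted p 0.0143) without CDAHFD replicate 1 and -0.02 (limma adjusted p 0.991) without CDAHFD replicate 2.

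The log2 signal of *Elovl2* was 2.79 and 2.85 in CDAHFD livers against 3.03 and 2.71 in control livers at 1 week, 2.29 and 1.92 in CDAHFD livers against 3.12 and 2.79 in control livers at 2 weeks and 2.33 and 1.73 in CDAHFD livers against 2.53 and 2.59 in control livers at 6 weeks. The CDAHFD pair lay below the control pair at 2 and 6 weeks and overlapped it at 1 week. The relative difference was -0.18, -0.9 and -0.57 (each ± 0.21 SE), with limma adjusted p of 0.857, 0.0091 and 0.0649, and -0.55 ± 0.12 averaged over the weeks (limma adjusted p 0.00567).

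The *Elovl2* call at 2 weeks was lost without control replicate 1 (-0.73, limma adjusted p 0.0747) or without CDAHFD replicate 2 of that week (-0.72, limma adjusted p 0.0828). Under quantile normalization the averaged difference was -0.26 (limma adjusted p 0.0893). The *Elovl5* over *Elovl2* ratio differed by -0.01 over the weeks (exact permutation p = 0.954), with values of -0.31, 0.22 and 0.06 at 1, 2 and 6 weeks.

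No gene of the 10 passed the test of a change in its diet difference between weeks (0 by limma's F test), against 2.33% of all genes at the same adjusted threshold. At an unadjusted p under 0.05 there were 0 of the 10. The nearest were *Elovl2*, whose difference changed by -0.78 between 1 and 2 weeks (limma adjusted p 0.281 for the F test), and *Elovl6*, whose difference changed by -1.07 between 1 and 6 weeks (limma adjusted p 0.345 for the F test and 0.179 for this contrast). Without CDAHFD replicate 2 of 6 weeks *Elovl6* passed (-1.65, limma adjusted p 0.00813 for the contrast). Within CDAHFD livers 0 of the 10 passed limma's F test across the weeks at the adjusted threshold, against 3.08% of all genes. Before adjustment 3 of the 10 had a p under 0.05, and the share of all genes at that unadjusted level is not given here. In the single contrast of 6 weeks minus 1 week within CDAHFD livers, *Elovl2* was lower (-0.79 ± 0.21, limma adjusted p 0.049, and 0.0971 for the F test), where 2.99% of all genes were called lower. Within control livers 0 of the 10 passed at the adjusted threshold, against 11.5% of all genes, and 0 of the 10 had an unadjusted p under 0.05. Week 6 cannot be told apart from slide 2 in these tests within a diet.

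Over all weeks together, 2 of the 10 genes (*Scd2* and *Elovl7*) had all 6 CDAHFD arrays above all 6 control arrays, against 21% of all genes. Another 2 (*Scd1* and *Elovl3*) had all 6 CDAHFD arrays below all 6 control arrays, against 11% of all genes.

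The CDAHFD replicates at 6 weeks lay far apart for *Scd1*. The gap of *Scd1* between replicate 2 and replicate 1 was 3.27, or 9.67-fold, and ranked 14 in size among 13900 genes, whose gaps had a standard deviation of 0.49. At 1 and 2 weeks the *Scd1* gap of the CDAHFD replicates was -0.16 and 1.13. *Elovl6* had a gap of 1.18 and *Scd2* of 0.47 (3044 in size) in the same direction, whereas *Elovl3* (-1.31), *Elovl5* (-0.94) and *Elovl2* (-0.61) were lower on replicate 2. Among 10 genes of malonyl-CoA and palmitate supply, 8 were higher on replicate 2, against 51.9% of all genes, with gaps of 2.34 for *Fasn*, 1.76 for *Thrsp*, 0.87 for *Acly* and 0.86 for *Acaca*.

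**Figure D4:**
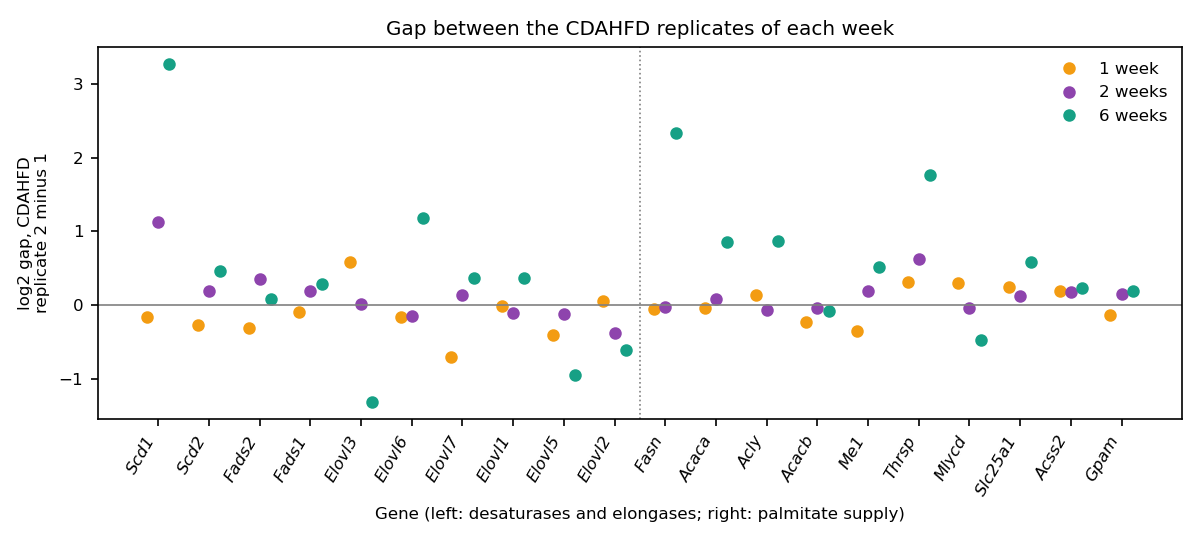
Log2 gap between the CDAHFD arrays of a week, replicate 2 minus replicate 1 (vertical axis), for the desaturases and elongases (left of the dotted line) and genes of palmitate supply (right), with weeks as colours. Each point is 1 gene and 1 pair of arrays. At 6 weeks *Scd1* (3.27), *Fasn* (2.34), *Thrsp* (1.76) and *Elovl6* (1.18) stand above 0, while *Elovl3* (-1.31) and *Elovl5* (-0.94) stand below it.

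The enzymes around the desaturases and elongases were read from lists chosen by function. The counts of each list stand against the shares of all genes called at 1, 2 and 6 weeks, which were 25.8%, 23% and 24.5% higher and 15.1%, 14.7% and 16% lower. Of the 6 other enzymes of the elongation cycle, which reduce and dehydrate the product of the elongase, 1 was higher and 3 were lower at each week. *Tecr*, the trans-enoyl-CoA reductase of the last step, was lower, at -1.08, -0.74 and -0.89 (each ± 0.11 SE; limma adjusted p 1.3e-04, 7.7e-04 and 1.5e-04). *Hsd17b12*, the ketoacyl reductase, was lower, at -0.53, -0.51 and -0.9 (each ± 0.12 SE). Of the dehydratases, *Hacd1* was lower (-0.61, -0.58 and -0.84) and *Hacd4* higher (0.66, 1.92 and 2.04), while *Hacd3* (-0.17, -0.01 and -0.07) and *Hacd2* (0.06, 0.05 and 0.02) did not pass the test. The list's median was -0.35, -0.26 and -0.45.

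The desaturases draw electrons from cytochrome b5 and its reductases. Of the 6 measured genes, 1 was higher and 3, 3 and 2 were lower at 1, 2 and 6 weeks, with a median of -0.7, -0.2 and -0.06. *Cyb5r3*, the NADH-dependent reductase, was lower, at -0.99, -0.75 and -0.98 (each ± 0.11 SE). *Cyb5b*, also counted here, was lower at -1.03, -1.17 and -1.39 (each ± 0.17 SE), but encodes the cytochrome b5 of the outer mitochondrial membrane. *Cyb5a* was lower at 1 and 2 weeks (-0.97 and -0.69) and did not pass at 6 weeks (-0.39 ± 0.16, limma adjusted p 0.0991). *Cyb5r1* was higher at each week (1.35, 1.5 and 1.17, each ± 0.31 SE).

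Of the 10 genes that supply malonyl-CoA and palmitate, the substrates of elongation and desaturation, 0, 0 and 1 were higher and 6, 4 and 7 lower, against 15.1%, 14.7% and 16% of all genes lower, with a median of -1.0, -0.41 and -1.19. *Acly* (ATP citrate lyase) was lower at each week, at -1.04, -0.88 and -1.2 (each ± 0.24 SE), *Me1* (malic enzyme) at -1.21, -1.25 and -2.17 (each ± 0.2 SE) and *Acss2* (acetyl-CoA synthetase) at -1.88, -1.58 and -2.03 (each ± 0.2 SE). *Fasn*, fatty acid synthase, had values of -0.83, -0.41 and -1.18 (each ± 0.73 SE; limma adjusted p 0.475, 0.746 and 0.256). *Acaca*, the cytosolic acetyl-CoA carboxylase, had values of -0.38, -0.02 and -0.57 (each ± 0.21 SE) and passed at no week. *Thrsp* was lower at 6 weeks (-2.35 ± 0.65, limma adjusted p 0.0278), and *Gpam*, the first acyltransferase of triglyceride synthesis, was higher then (0.42 ± 0.14, limma adjusted p 0.0231).

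Of 18 regulators, 2, 1 and 2 were higher and 3, 6 and 5 lower, with a median of -0.26, -0.19 and -0.24. *Srebf1*, which encodes SREBP-1, was lower at 1 and 2 weeks (-1.2 and -1.25, each ± 0.37 SE; limma adjusted p 0.0438 and 0.0304) and had -0.83 at 6 weeks (limma adjusted p 0.12). *Scap*, the SREBP escort, was lower at each week (-0.88, -0.86 and -1.05), and *Insig1*, itself an SREBP target, had -0.67 at 1 week (limma adjusted p 0.115) and was lower at 2 and 6 weeks (-1.1 and -1.89). *Mlxipl*, which encodes the carbohydrate sensor ChREBP, was higher at 1 week (0.42 ± 0.18, limma adjusted p 0.029) and lower at 2 and 6 weeks (-1.04 and -0.83). Its mean log2 signal was 2.99, 2.69 and 2.74 in CDAHFD livers and 2.44, 3.68 and 3.53 in control livers. The change of sign thus lay mostly in the controls. *Nr1h3*, which encodes LXR alpha, had -0.28, -0.1 and -0.1 and passed at no week. *Pparg* was higher at 1 and 6 weeks (1.02 and 0.63, each ± 0.2 SE), and *Thrb* lower at 2 and 6 weeks (-0.79 and -1.09).

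Of the 5 measured close relatives, 0, 2 and 2 were higher and 0, 1 and 0 lower, with a median of -0.39, 0.05 and 0.12. *Fads3* had 0.69 at 1 week (limma adjusted p 0.088) and was higher at 2 and 6 weeks (1.09 and 1.06, each ± 0.35 SE). *Scd3*, a further stearoyl-CoA desaturase, was lower at 2 weeks (-0.65 ± 0.2, limma adjusted p 0.036) and had -0.42 and 0.12 at 1 and 6 weeks. *Degs2*, a sphingolipid desaturase, was at least 2.48-fold higher at 2 weeks (limma adjusted p 0.0143). *Elovl4* and *Scd4* did not pass the filter on dim probes.

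Genes that activate, shorten or place the same fatty acids moved both ways. Of 10 genes of peroxisomal shortening of very long chains, 1 was higher at each week and 4, 3 and 3 were lower, with a median of -0.77, -0.38 and -0.34. *Scp2*, which carries the last thiolase step for branched chains, was lower, at -1.0, -0.72 and -0.59 (each ± 0.17 SE), as was *Abcd3*, a peroxisomal membrane transporter, at -1.08, -0.99 and -0.91 (each ± 0.18 SE). *Hsd17b4* had -0.54, -0.47 and -0.47 and passed at no week. *Abcd2*, a transporter of very long chains, was at least 2.82-fold higher at 1 week and at least 3.75-fold higher at 6 weeks (limma adjusted p 0.00371 and 0.00293).

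Of 6 acyl-CoA synthetases, 1, 1 and 0 were higher and 3 lower at each week, with a median of -0.79, -0.58 and -0.53. *Acsl1* (-1.01, -0.99 and -1.0, each ± 0.3 SE), *Acsl5* (-1.0, -0.62 and -0.59, each ± 0.14 SE) and *Slc27a5* (-1.52, -1.31 and -1.11, each ± 0.21 SE) were lower. *Acsl4*, which prefers arachidonate, was higher at 1 and 2 weeks (0.44 and 0.51, each ± 0.17 SE; limma adjusted p 0.0244 and 0.0256).

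Of 7 acyltransferases that remodel phospholipids, 0, 3 and 3 were higher and 1 lower at each week, with a median of -0.3, 0.05 and 0.2. *Agpat2* was lower (-1.25, -0.81 and -0.54, each ± 0.12 SE), and *Lpcat3*, which places polyunsaturated chains in hepatic phosphatidylcholine, had -0.3, -0.07 and -0.09 and passed at no week. *Lpcat1* was at least 1.1-fold higher at 6 weeks (limma adjusted p 7.5e-04) and *Mboat1* at least 2.95-fold higher at 2 weeks (limma adjusted p 0.00843), both against controls below background.

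Of 8 enzymes that use polyunsaturated fatty acids to make eicosanoids and related lipids, 2 were higher at each week and 2, 1 and 1 lower, with a median of -0.15, -0.08 and -0.2. *Alox5ap*, the partner of 5-lipoxygenase, was higher by 1.81, 2.81 and 2.65 (each ± 0.2 SE) and *Pla2g4a*, which releases arachidonate from phospholipid, by 1.92, 2.3 and 2.02 (each ± 0.39 SE). *Cyp2j5*, an epoxygenase, was lower (-1.73, -1.5 and -1.95, each ± 0.21 SE), and *Ptgs1* (0.02, 0.03 and -0.13) passed at no week.

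**Figure D5:**
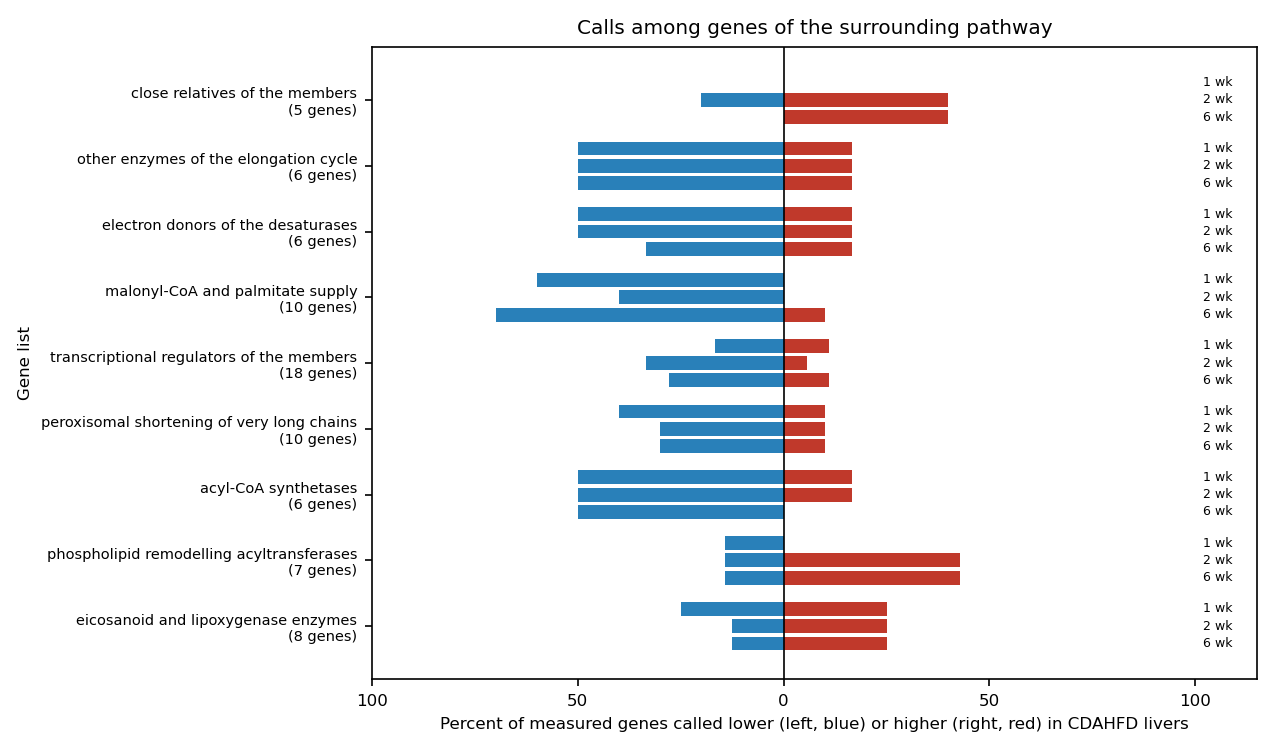
Percent of the measured genes of each list (rows, with the number of genes) called higher (right, red) or lower (left, blue) in CDAHFD livers than in control livers at 1, 2 and 6 weeks. Bars are shares of genes with a limma adjusted p under 0.05. The list of malonyl-CoA and palmitate supply has 6, 4 and 7 of 10 genes lower and 0, 0 and 1 higher, where 15.1%, 14.7% and 16% of all genes were lower and 25.8%, 23% and 24.5% higher.

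Markers of other cell types differed between the diets beside these genes, and their counts stand against 25.8%, 23% and 24.5% of all genes higher at 1, 2 and 6 weeks. Of 9 macrophage and monocyte markers, 6, 8 and 8 were higher and 1, 0 and 0 lower, and their mean log2 signal was -1.03 to 0.32 on CDAHFD arrays and -4.2 to -3.38 on control arrays. *Cd68* was higher by 2.03, 3.04 and 3.23 (each ± 0.18 SE), and *Gpnmb* was at least 51.8-fold, 192-fold and 406-fold higher at 1, 2 and 6 weeks. Of 8 stellate cell and fibroblast markers, 7 were higher at each week, with a mean log2 signal of -0.91 to -0.37 on CDAHFD arrays and -2.7 to -1.97 on control arrays. *Col1a1* was higher by 2.44, 3.52 and 4.01 (each ± 0.25 SE). Their part in the rise of *Scd2*, *Elovl7* and *Fads2* was not tested.

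Of 6 cholangiocyte markers 1, 1 and 2 were higher and 1, 0 and 0 lower, of 6 endothelial markers 1 was higher at each week and 0, 0 and 2 lower, and of 5 lymphocyte markers 2, 0 and 1 were higher and 2, 0 and 0 lower. Of 4 erythroid markers, 0 were higher and 4, 4 and 3 lower, with a median of -1.66, -1.22 and -0.96, where 15.1%, 14.7% and 16% of all genes were lower. Of 5 adipocyte markers 2 passed the filter, with 0, 1 and 1 of these lower, and *Adipoq*, *Plin1* and *Lep*, the markers that define fat cells, did not pass it.

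Of 7 hepatocyte markers, 6, 4 and 2 were lower and 0 higher at 1, 2 and 6 weeks, where 15.1%, 14.7% and 16% of all genes were lower. The marker calls became fewer with time. The markers' mean log2 signal was 4.42 to 4.51, 4.19 to 4.24 and 4.11 to 4.14 on control arrays at 1, 2 and 6 weeks. On CDAHFD arrays it was 3.58 to 3.8, 3.59 to 3.69 and 3.64 to 3.88. The control mean thus fell across the weeks, while the CDAHFD ranges overlapped. *Alb*, serum albumin, was lower at 1 week (-1.3 ± 0.18) and had -0.22 and -0.03 at 2 and 6 weeks (limma adjusted p 0.506 and 0.976). *Hnf4a*, a transcription factor of hepatocytes, was lower at 1 and 2 weeks (-0.78 and -0.54, each ± 0.11 SE) and had -0.32 at 6 weeks (limma adjusted p 0.0592). *Cps1*, a urea cycle enzyme, was lower at each week (-0.71, -1.01 and -0.9, each ± 0.21 SE), as was *Fah*, an enzyme of tyrosine breakdown (-1.11, -0.87 and -0.75, each ± 0.16 SE). The part of hepatocyte content in the lower signals of *Scd1*, *Elovl3*, *Elovl2* and *Elovl6* was not tested.

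For each of the 10 genes, the 3 genes with the most similar pattern were found by the root mean square distance between their 6 group means, after each gene's own mean was subtracted. These distances are descriptions over 6 groups that share arrays. The genes nearest *Scd1* were *Slc13a2* (0.83), *Elovl3* (0.96) and *Hnf4aos* (1.33), among 11364 candidates. Those nearest *Elovl3* were *Slc13a2* (0.48), *Ces2a* (0.67) and *Gm3734* (0.68). Those nearest *Scd2* were *Pilra* (0.05), *Il10rb* (0.05) and *Pld4* (0.07), and those nearest *Elovl7* were *Clec4e* (0.4), *Apoa4* (0.42) and *Cbr3* (0.45) among 12858 candidates.

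*Slc13a2*, a carboxylate transporter, had diet differences of -4.46, -4.52 and -5.2 at 1, 2 and 6 weeks, and *Clec4e*, a C-type lectin, had 5.15, 4.95 and 5.35. For the genes with small differences the nearest patterns lay at 0.04 to 0.1, which many genes can reach by having little change. They were *E2f1*, *Mphosph6* and *Trim7* for *Fads2*, *Haus1*, *Ccdc141* and *Nol8* for *Fads1*, *Tmem220*, *Zfp433* and *Arhgap42* for *Elovl6*, *Vps13c*, *Lmf2* and *Grb2* for *Elovl1*, *Clec3b*, *Plcb1* and *Kmo* for *Elovl5*, and *Sipa1l1*, *Pfdn1* and *St6galnac1* for *Elovl2*.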

How the data were processed

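The 12 arrays (2 for each diet and week) each received liver RNA of which 150 ng had been labelled with Cy3, per the labels. Deposited spot intensities are linear, background-subtracted and detrended within each array by Agilent Feature Extraction, per the file headers, which give version 11.5.1.1, where the submitters' processing notes give 10.7. Control spots and spots marked as outliers were left out (54 values missing). Of 55681 gene probes, 28664 were named through the RefSeq table of GRCm38.p6, used for names and promoters only, the array's own build being older. The log2 of the processed intensity was set relative to each array's 75th percentile over those 20172 probes that exceeded background clearly on every array.

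Where a gene had several probes, the one of highest mean stood for it. Differences were fitted with limma 3.58.1 in R 4.3.3 (6 group means, eBayes with trend and robust, 6 residual degrees of freedom), 2-sided, with Benjamini-Hochberg adjustment over all 13901 genes, and the fit was tested on simulated data. The members and the 17 lists were chosen with earlier results of these data known. The text names every member, the first 3 measured genes of the 9 pathway lists and up to 4 further ones, and the 3 nearest patterns of each member, except 1 listed gene that is not reported here. Alternatives covered scaling, background correction, probe filter, probe choice, spread, array weights, replicate block, samples in the fit and each array left out. The number of arrays limits the precision.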

Additional observations from a re-analysis of the deposited data

How the results depend on the processing

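Of 50 differences of the 10 genes (each week, the average, and 6 weeks against 1 week), 22 were called, and 17 of these remained past the threshold with their direction under each of the 22 to 26 alternatives run for them. For the weekly differences these alternatives include the 2-fold minimum. It reused the main fit and entered only the counts of genes, so it could not end a single gene's call. *Fads2* (0.93) and *Elovl2* (-0.9) at 2 weeks fell short of 2-fold. The called results of *Elovl7* could not be recomputed with probes well above background on all arrays, which drops the gene, so the number of genes called higher was 1 at 1 week and 1 at 6 weeks under that filter, against 2 and 2. Calls ended for *Fads2* and *Elovl2* at 2 weeks, *Elovl6* at 6 weeks, and *Elovl2* and *Elovl5* in the average, with the values given beside them above, and the cause was not tested. Of the 28 results that were not called, 12 passed under at least 1 alternative. No called result was reversed (0). The number of genes whose diet difference changed between weeks ranged from 0 to 1 when each array was left out, with *Elovl6* the gene that passed without CDAHFD replicate 2 of 6 weeks.

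With the replicate number as a block, 2 genes were called higher and 2 lower at 1 week, and *Elovl2* at 6 weeks passed (-0.57, limma adjusted p 0.0266). The deviations of same-numbered CDAHFD and control arrays correlated at -0.05, 0.18 and 0.11 at 1, 2 and 6 weeks, and same-numbered arrays share a row of the slide (row 1 or 2), so that number and row cannot be told apart. Over all genes, 3581 were called higher and 2101 lower at 1 week, but 2657 and 3204 with median centring, 2296 and 4069 with the percentile over all probes, 1496 and 3022 with normexp correction and 3527 and 4560 without the probe filter. At 2 weeks the counts as reported were 3197 higher and 2047 lower, against 2749 and 2866, 2441 and 3777, and 1646 and 1763 with median centring, all probes and normexp. At 6 weeks they were 3411 and 2225, against 2950 and 3168, 2606 and 4236, and 2007 and 1750. With a 2-fold minimum they were 1722 and 732, 1879 and 574, and 2098 and 667 at 1, 2 and 6 weeks. Without 1 array of the week, the calls fell to as few as 2036 higher (without CDAHFD replicate 1) and 1026 lower at 1 week, and to 1182 lower at 2 weeks (without CDAHFD replicate 2) and 1322 lower at 6 weeks (without control replicate 1). Normexp used median spot signals and was chosen after seeing the data, and the version on mean signals was not run. Dim signals limit *Elovl7*, whose controls lay near background.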
